A study of Mus musculus with 8 samples.

Results

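The comparison described here sets mouse CD3 T cells that had been treated with ConA for 3 h on a PLL-coated plate against naive CD3 T cells in steady state, counted as 0 h. Concanavalin A (ConA) is a plant lectin that binds sugars on surface glycoproteins, the T cell receptor among them, and activates T cells. Poly-L-lysine (PLL) is a positively charged polymer that holds cells on a surface through the negative charge of their membrane. The comparison uses 2 of the 8 arrays of the series, 1 array for each group. The other 6 arrays hold RNA of cells after ConA at 3 h, PLL at 3 h, ConA+PLL at 24 h, ConA at 24 h, PLL at 24 h and of naive cells at 24 h, also 1 array each. All cells came from C57BL/6J mice and, per the study's methods, were isolated out of spleen and lymph nodes by removing other cells, so CD4+ and CD8+ cells are mixed. The mice were in general 8 weeks old and matched for sex, per the methods, and how many went into an array is stated in neither the labels nor the methods. The treated 24 h groups were stimulated for 3 h, washed and cultured further, and the labels name no stimulus for the naive 24 h group. The study asked whether holding T cells on a surface alters what a stimulus does to them.

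The 3 h array and its control differ in ConA, in contact with the plate and in time in culture, and these cannot be told apart in the difference between them. With 1 array a side there is no replicate check, no error and no p-value for any value below. Values are log2 levels from the robust multi-array average (RMA), a normalization that sums the probes of a gene into a single level, so a difference of 1 is a 2-fold difference. Levels are compared for one gene between arrays and not between genes. Bulk RNA cannot tell a gene that is higher in each cell from one that is on in more cells.

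T cells that sense antigen or a lectin run through a known order of events. Calcium, MAP kinase and NF-kB signals first switch on immediate early genes such as the Egr and Nr4a factors, which need no new protein. Cytokine, receptor and growth genes follow, and Myc then drives the build-up of nucleoli, transporters and enzymes before DNA is copied. Genes that keep a T cell quiet and circulating are switched off along the way.

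Promoter letters of some of the genes that the results turn on are shown first, because the factors just named bind short motifs. The sequences are 120 bases upstream of a RefSeq transcription start (GRCm38.p6), read 5′ to 3′ on the gene's own strand. Capitals mark the CArG box, which serum response factor binds, in Egr2 (chr10:67537439-67537558, + strand) and Dusp5 (chr19:53529008-53529127, + strand), a MAP kinase phosphatase. They mark the NF-kB consensus in Nfkbid (chr7:30422156-30422275, + strand), a nuclear IkB protein, in Il2ra (chr2:11642542-11642661, + strand), the alpha chain of the IL-2 receptor, and in Nfkbia (chr12:55492648-55492767, - strand), the classical NF-kB inhibitor. In Nop2 (chr6:125131763-125131882, + strand), an RNA methyltransferase of the nucleolus, they mark the E-box CACGTG that Myc binds.
Egr2: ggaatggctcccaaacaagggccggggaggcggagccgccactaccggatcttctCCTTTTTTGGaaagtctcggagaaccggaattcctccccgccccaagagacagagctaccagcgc
Dusp5: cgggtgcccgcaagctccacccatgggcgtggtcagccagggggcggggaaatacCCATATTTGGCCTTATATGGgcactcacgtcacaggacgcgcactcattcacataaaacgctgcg
Nfkbid: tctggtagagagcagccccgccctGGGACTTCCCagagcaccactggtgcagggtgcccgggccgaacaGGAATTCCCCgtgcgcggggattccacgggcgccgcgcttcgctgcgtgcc
Il2ra: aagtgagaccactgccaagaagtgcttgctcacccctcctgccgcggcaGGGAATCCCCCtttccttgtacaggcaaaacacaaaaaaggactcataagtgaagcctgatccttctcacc
Nfkbia: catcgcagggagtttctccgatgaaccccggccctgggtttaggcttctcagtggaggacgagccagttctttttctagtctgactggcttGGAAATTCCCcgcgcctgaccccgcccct
Nop2: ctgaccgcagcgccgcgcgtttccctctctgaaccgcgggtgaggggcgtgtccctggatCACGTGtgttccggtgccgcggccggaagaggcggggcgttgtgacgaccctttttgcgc

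Over the 13428 genes that passed the filter on dim genes, 138 (1.03%) were at least 2-fold higher in ConA+PLL 3 h cells than in naive cells and 87 (0.648%) were at least 2-fold lower. The median difference of all genes was -0.06 and 42.7% of the genes lay above 0, so most genes lay at or below 0 while more of the 2-fold differences lay above it. This split moved with the scaling of the arrays. After quantile normalization 164 genes were 2-fold higher and 54 lower, of which 129 and 52 were among the 138 and 87. Centring each array on its median gave 172 and 61, and cyclic loess between both arrays gave 166 and 55. Of the genes named by the rule in the processing section, Cd6, Ier2, Tgfb1, Nop58 and Oas2 fell under the 2-fold limit after quantile normalization and cyclic loess. Noc3l did so after quantile normalization, and Ifit2, Rrm2 and Socs3 under all 3 scalings. Genes named outside that rule, Siah1a and Hdac7 near the limit among them, were not followed singly under these scalings. Without rescaling, the 3 h list counts below stand against 1.03% of all genes 2-fold higher, 0.648% lower and 42.7% above 0.

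How far a difference can be read depends on the level of the gene. Olfactory and vomeronasal receptor genes, which T cells are not known to use, served as a ruler for dim probe sets. The 95th percentile of their highest levels was 4.10, and over 1396 of them the difference had an SD of 0.37. Of the 1396, 19 (1.36%) were at least 2-fold higher and 6 (0.43%) lower. Of the 152 past the filter, 4 (2.63%) were higher and 2 (1.32%) lower, against 1.03% and 0.648% of all filtered genes. The share of 2-fold higher genes was thus no smaller among receptor genes than among all genes. Of the 138 genes that were 2-fold higher, 112 lay at or above 4.10 on both arrays, 12 on one and 14 on neither. Of the 87 that were lower, 34 lay at or above it on both, 38 on one and 15 on neither. Among the 1042 genes with a mean level of 8 or more, 22 were 2-fold higher and 1 was lower. Among the 2819 with a mean level from 4 to under 5, 12 were higher and 32 lower. Most 2-fold higher genes thus lay above the level of the receptor genes on both arrays, and most 2-fold lower ones were under it on at least 1.

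**Figure D1:**
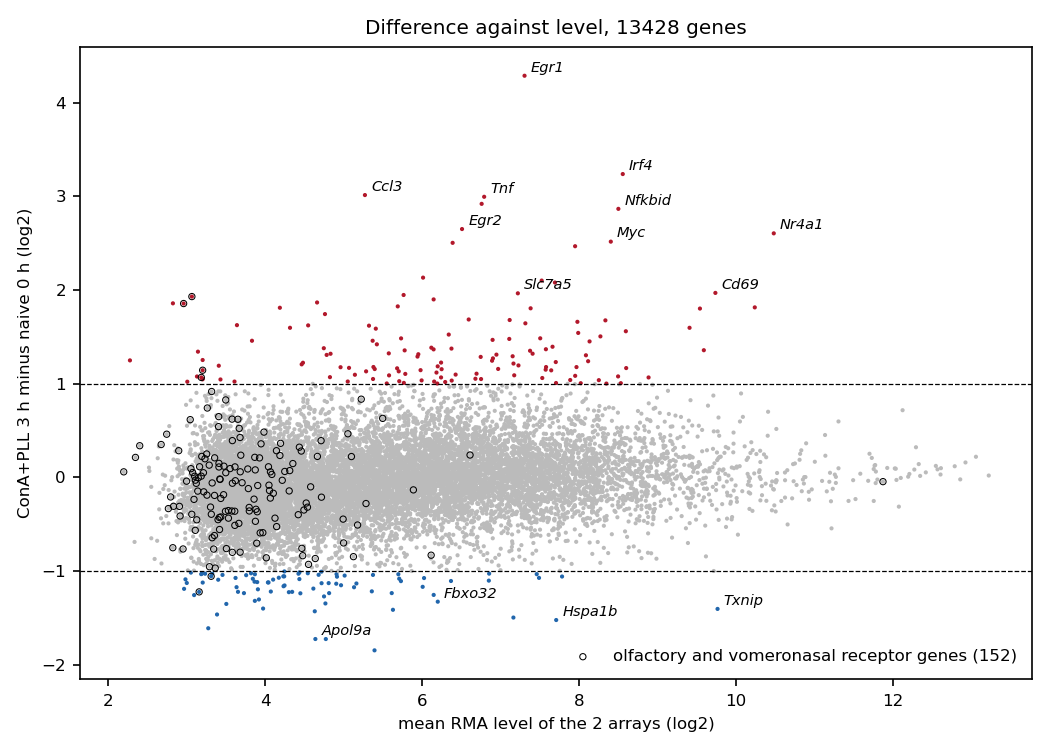
Difference between the ConA+PLL 3 h and the naive 0 h array (log2, vertical axis) against the mean level of both arrays (log2, horizontal axis) for 13428 genes. Genes at least 2-fold higher in ConA+PLL 3 h cells are red (138), those at least 2-fold lower are blue (87), dashed lines mark a difference of 1 and -1, and circles mark the 152 olfactory and vomeronasal receptor genes past the filter.

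The Egr and Nr4a factors, zinc finger and orphan nuclear receptor genes that answer T cell receptor signals within an hour, had the highest median of the 39 lists. Of the 7 members, 6 were at least 2-fold higher (all genes, 1.03%) and the median difference was 2.61. Egr1 stood at 9.45 in ConA+PLL 3 h cells, 8.36 in ConA 3 h cells, 5.35 in PLL 3 h cells and 5.16 in naive cells. Its difference of 4.29, a 19.6-fold difference, was the highest of all 13428 genes. Egr3 stood at 8.22, 7.09, 4.80 and 5.30 on the same arrays, and Egr2, whose CArG box is shown above, at 7.83, 6.71, 5.14 and 5.18. For all these genes the order of the arrays was ConA+PLL, then ConA, with PLL and naive cells close together below. Nr4a1, the receptor also called Nur77, stood at 11.78, 10.84, 8.71 and 9.18, and Nr4a3 and Nr4a2 were 1.60 and 1.54 higher than in naive cells. Egr4 lay under 4.10 on both arrays (3.36 in ConA+PLL 3 h cells, 3.71 in naive cells).

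The AP-1 and bZIP factors, which pair as dimers with NFAT on cytokine promoters, stayed near the median of all genes. Their median was 0.02, with 8 of 15 measured members above 0 and 1 at least 2-fold higher. That gene was Fos, at 6.83 in ConA+PLL 3 h cells, 6.13 in ConA 3 h cells, 5.10 in PLL 3 h cells and 5.46 in naive cells. Atf3, a stress-linked member, was just under the 2-fold limit (6.36 against 5.37 in naive cells) and past it under all 3 other scalings. Jun, the usual partner of Fos, was lower, at 7.81 in ConA+PLL 3 h cells, 8.27 in ConA 3 h cells, 6.72 in PLL 3 h cells and 8.73 in naive cells. Junb and Fosl2 differed by 0.28 and 0.36 and Fosb by -0.63. Fos and Jun therefore stood on opposite sides of the naive array.

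Other factors of activation were higher in part. Of 22 members, 6 were at least 2-fold higher and 15 lay above 0, with a median of 0.24, a shift that was lost when the probe sets of a gene were averaged. Irf4, a factor whose dose follows the strength of the receptor signal, stood at 10.18 in ConA+PLL 3 h cells, 8.67 in ConA 3 h cells, 6.63 in PLL 3 h cells and 6.94 in naive cells. Myc, the driver of cell growth, stood at 9.66, 8.40, 6.87 and 7.15, which is a 5.73-fold difference between ConA+PLL 3 h and naive cells. Id3 (1.48), an inhibitor of E proteins, Bhlhe40 (1.32), a regulator of cytokine output, Nab2 (1.30), which binds Egr factors, and the early gene Ier2 (1.01) completed the 6. In Nab2 both probe sets were at least 2-fold higher (1.64 and 1.30). This was not typical. Of the 15 genes 2-fold apart with several probe sets, 11 had all in the same direction and only Nab2 had all beyond 2-fold.

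The NF-kB list was higher as a group and in small steps. Of 18 measured members 15 lay above 0 (all genes, 42.7%), with a median of 0.65, while 1 passed the 2-fold limit (all genes, 1.03%). That gene was Nfkbid, at 9.93 in ConA+PLL 3 h cells, 8.44 in ConA 3 h cells, 7.06 in PLL 3 h cells and 7.07 in naive cells. Among the subunits, Nfkb2 was at 8.35 against 7.36 in naive cells, just under the limit, Relb was higher by 0.78, Rel 0.77 and Rela 0.69. Among the other members of the IkB family, Bcl3 was 0.96 higher, Nfkbia 0.90, Nfkbiz 0.79, Nfkbib 0.61 and Nfkbie 0.48. Tnfaip3 (A20), a deubiquitinase that ends the NF-kB signal and is often induced along with Nfkbia, did not follow them, at 9.78 against 9.80 in naive cells. Tnip1 (-0.07), its binding partner, and Map3k14 (-0.18), the kinase of the second NF-kB pathway, were the others below 0. Map3k8 (Tpl2), a kinase that acts on the ERK pathway downstream of IkB kinase, lies outside the list and was 1.83 higher.

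Feedback on signalling was also higher in part. Of 14 MAP kinase phosphatase and Sprouty genes 2 were at least 2-fold higher, with a median of 0.36. Dusp2 stood at 9.17 in ConA+PLL 3 h cells, 8.24 in ConA 3 h cells, 6.98 in PLL 3 h cells and 7.50 in naive cells. Dusp5, a nuclear ERK phosphatase with a pair of adjoining CArG boxes in the stretch shown above, stood at 8.81, 8.04, 7.17 and 7.15. Spred2 and Spry1, inhibitors of the Ras and ERK pathway, were 0.92 and 0.77 higher. Dusp1, the phosphatase best known as an immediate early gene, was named after its value was seen and differed by -0.33.

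The T cell receptor list had a median of 0.36. Of its 25 measured members 19 lay above 0 (all genes, 42.7%) and 4 were at least 2-fold higher (all genes, 1.03%). Ptpn6 (SHP-1), a tyrosine phosphatase that dampens receptor signals, stood at 9.18 in ConA+PLL 3 h cells, 8.39 in ConA 3 h cells, 6.96 in PLL 3 h cells and 6.72 in naive cells. Lcp2 (SLP-76), an adaptor downstream of Zap70, was 1.36 higher, the kinase Fyn 1.18, and the surface receptor Cd6 was at 8.85 against 7.85 in naive cells, just past the limit. Malt1, the protease that links the receptor to NF-kB, was at 9.01 against 8.01, just under the limit. Cd3e, a chain of the receptor complex itself, stood at 10.77 in ConA+PLL 3 h cells, 10.48 in ConA 3 h cells, 10.08 in PLL 3 h cells and 10.25 in naive cells. Calcium and NFAT genes had 6 of 12 measured members above 0. The exceptions there were Orai1, the pore of the calcium channel that opens on activation, at 7.63 against 6.16 in naive cells, and Nfatc1, the NFAT member that is itself induced, at 8.77 against 7.73.

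**Figure D2:**
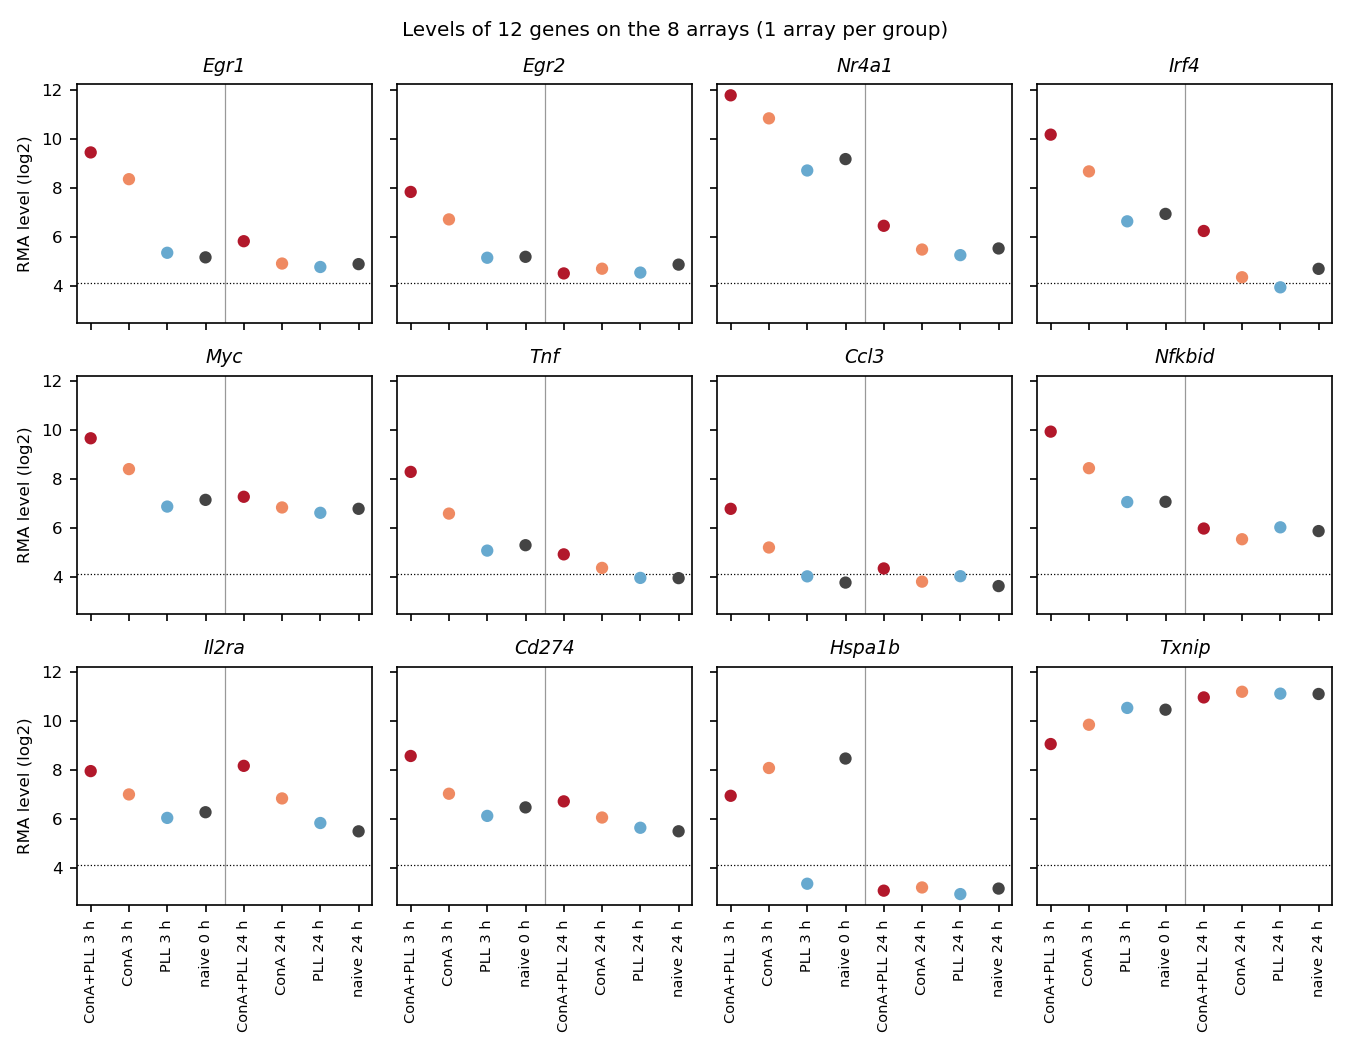
RMA levels (log2) of 12 genes on the 8 arrays, 1 point per array and 1 array per group. The dotted line is the level of 4.10 from receptor genes, and the grey line divides the 3 h and 0 h arrays from the 24 h arrays. In 10 of the 12 panels ConA+PLL is the highest of the 4 arrays on the left, and Hspa1b and Txnip are the exceptions.

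Chemokine and cytokine genes held several of the highest differences. Of 31 genes in the list 20 passed the filter and 16 of them lay above 0 (all genes, 42.7%). Of the 20, 8 were at least 2-fold higher (all genes, 1.03%), Il2 among them, which lay under 4.10 on both arrays. The median was 0.58, a shift that was lost without the filter on dim genes. Tnf, an inflammatory cytokine, stood at 8.29 in ConA+PLL 3 h cells, 6.58 in ConA 3 h cells, 5.07 in PLL 3 h cells and 5.29 in naive cells. Xcl1 (lymphotactin), which draws cross-presenting dendritic cells, stood at 7.64, 6.69, 4.43 and 5.14. Ccl3 (MIP-1 alpha) stood at 6.78, 5.20, 4.02 and 3.76, and its difference of 3.02 becomes 2.68 when the naive level is set to 4.10. Ccl4 (MIP-1 beta), its neighbour in function, stood at 5.63, 4.21, 3.78 and 3.89, which from 4.10 is a difference of 1.54. These chemokine genes, which bring other immune cells to activated T cells, thus followed the order seen for the Egr factors. The growth factor gene Tgfb1 was 1.01 higher (9.04 against 8.03 in naive cells). Tnfsf14 (LIGHT) and the IL-6 family cytokine Lif were 1.81 and 1.22 higher, but from a naive level of 4.10 both differences end just under the 2-fold limit.

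The classical growth cytokine of T cells lay at the level of the receptor genes. Il2 was at 4.01 in ConA+PLL 3 h cells, 2.85 in ConA 3 h cells, 2.65 in PLL 3 h cells and 2.81 in naive cells, all under 4.10, so its difference of 1.19 has no firm size. Ifng, the effector cytokine of type 1 responses, was at 3.69, 2.66, 2.90 and 3.25. The 11 list members under the filter included Il4, Il10, Il17a and Csf2. Ltb and Ccl5, which resting T cells already make, were at 9.42 against 9.21 and at 7.82 against 8.05 in naive cells. Lta was 0.73 higher and Cd40lg 0.18.

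Surface receptors of activation followed. Of 16 genes 14 lay above 0 (all genes, 42.7%) and 7 were at least 2-fold higher (all genes, 1.03%), with a median of 0.76. Cd69, which holds activated cells in the tissue, stood at 10.72 in ConA+PLL 3 h cells, 9.67 in ConA 3 h cells, 8.15 in PLL 3 h cells and 8.75 in naive cells. The adhesion receptor Slamf1 and the signal inhibitor Cd5 were 1.81 and 1.80 higher. Icos (1.45), Tnfrsf9 (4-1BB, 1.24), Tfrc (the transferrin receptor, 1.11) and Cd27 make up the 7. Both members below 0, Cd226 and Tnfrsf1a, differed by -0.71 and -0.72 and were named after their values were seen. Cd5 is also one of the T cell markers of this report, and is the only T cell marker that was 2-fold higher.

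Checkpoint genes had a median of 0.45 over 10 measured members, 2 of them at least 2-fold higher. Cd274 (PD-L1), the ligand of PD-1, stood at 8.57 in ConA+PLL 3 h cells, 7.03 in ConA 3 h cells, 6.13 in PLL 3 h cells and 6.47 in naive cells. Btla was 1.49 higher. Ctla4 differed by -0.43 and Pdcd1 (PD-1 itself, named after its value was seen) by -0.12. Among cytokine receptors (median -0.09 over 21 members) Il2ra (CD25) alone passed the limit, at 7.96 in ConA+PLL 3 h cells, 7.0 in ConA 3 h cells, 6.04 in PLL 3 h cells and 6.28 in naive cells. The other chain named, Il2rb, was 0.46 higher, and Il7r and Ifngr1, receptors that resting cells depend on or carry, differed by -0.36 and -0.50.

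**Figure D3:**
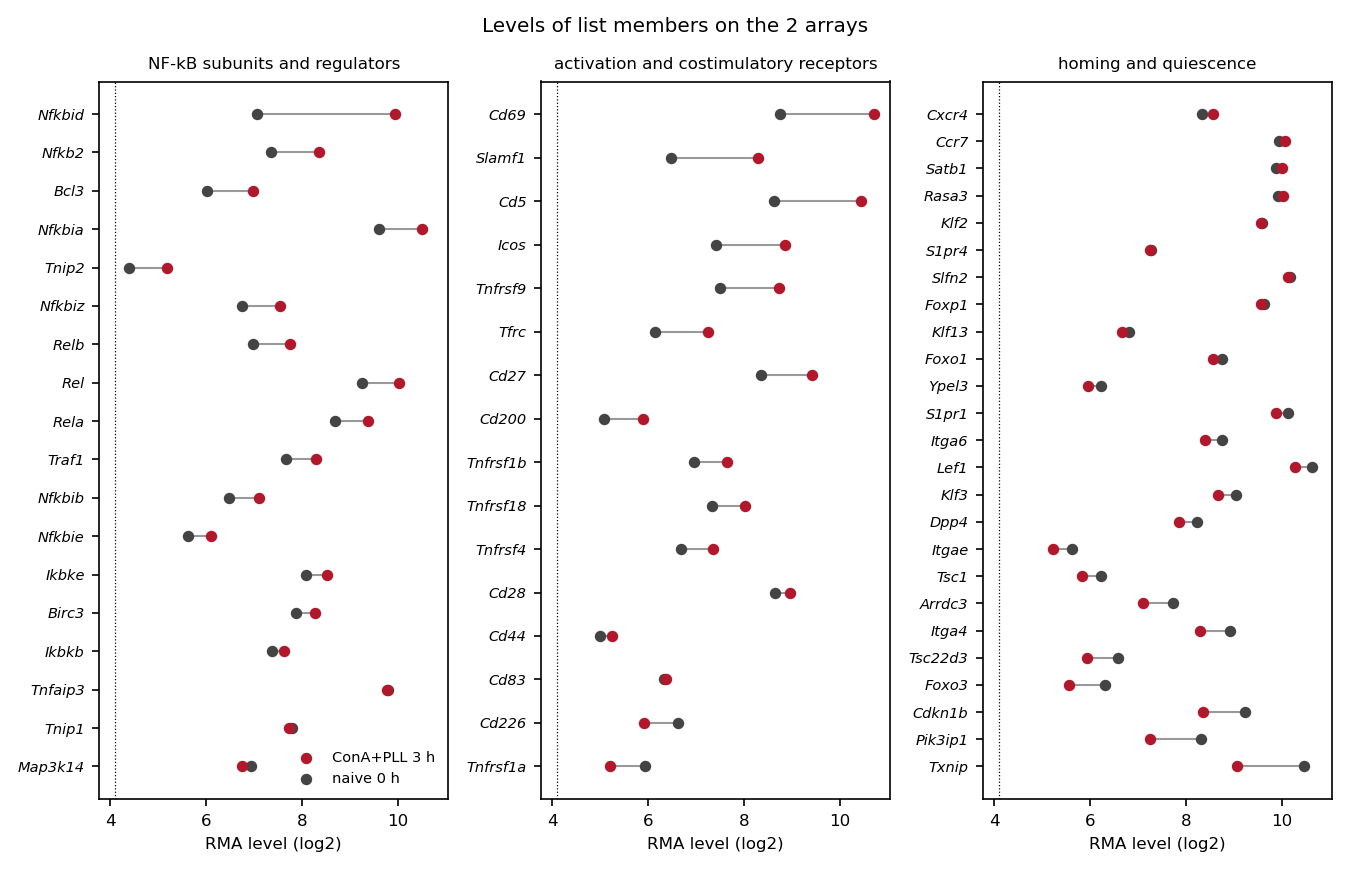
RMA levels (log2, horizontal axis) of the measured members of 3 lists in ConA+PLL 3 h cells (red) and naive 0 h cells (grey), 1 array each, ordered by their difference. The red point lies to the right in 15 of 18 NF-kB genes, in 14 of 16 activation receptors and in 4 of 25 homing and quiescence genes.

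Genes of homing and quiescence were lower as a group. Of 25 measured members 4 lay above 0 (all genes, 42.7%), 2 were at least 2-fold lower (all genes, 0.648%) and the median was -0.35 (all genes, -0.06). Txnip, an inhibitor of glucose uptake that nutrient supply controls, stood at 9.06 in ConA+PLL 3 h cells, 9.85 in ConA 3 h cells, 10.54 in PLL 3 h cells and 10.47 in naive cells. Both ConA arrays lay under the PLL and the naive array. Pik3ip1, an inhibitor of PI3 kinase, stood at 7.25, 7.91, 7.64 and 8.31, and its difference of -1.06 became -0.99 when the arrays were centred. Cdkn1b (p27), which holds cells out of the cycle, differed by -0.86, Foxo3 by -0.75, the glucocorticoid-induced gene Tsc22d3 (GILZ) by -0.64 and the integrin chain Itga4 by -0.63. Cxcr4, Ccr7, Satb1 and Rasa3, named because they were the exceptions, lay between 0.10 and 0.24 above the naive level.

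The remaining genes that were lowest by the naming rule fell into no single list. Apol9a, an interferon-inducible apolipoprotein L gene, was at 3.78 in ConA+PLL 3 h cells, 4.77 in ConA 3 h cells, 4.04 in PLL 3 h cells and 5.50 in naive cells, and its difference of -1.73 is -1.40 when the lower level is set to 4.10. Fbxo32 (atrogin-1), a ubiquitin ligase controlled by Foxo factors, was at 5.54 against 6.86 in naive cells. Of the 20 genes with the lowest differences, 10 ended under 4.10, among them H1f3, Cables1, Wfs1, Gna15 and Cd46. Lysmd1 differed by -1.41 in the brighter and by -0.51 in the other of its probe sets.

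Both inducible Hsp70 genes, which stress switches on, were lower in ConA+PLL 3 h cells than in naive cells and lowest in PLL 3 h cells. Hspa1b was at 6.95 in ConA+PLL 3 h cells, 8.08 in ConA 3 h cells, 3.35 in PLL 3 h cells and 8.47 in naive cells. Hspa1a was at 6.42, 7.47, 3.15 and 7.91. Both are near-identical copies, so their probes may read each other's RNA and the pair counts as one observation. The naive cells had the highest level, an order of the 4 early arrays that 535 genes shared. At 24 h all 4 groups were between 2.93 and 3.20 for Hspa1b. Hspa4l, an Hsp110 family member, was 1.65 higher in ConA+PLL 3 h cells than in naive cells, Hsph1 0.76 and the co-chaperone Stip1 0.72, and the heat shock list had a median of 0.06 over 20 members. All 8 subunits of the chaperonin CCT, which folds actin and tubulin, lay above 0, with a median of 0.30, against 42.7% of all genes above 0. The shift of this list was lost after quantile normalization and cyclic loess. The median of the unfolded protein response genes was -0.01, where Eif2ak3 (PERK) differed by -0.90 and Dnajb9 by -0.83.

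**Figure D4:**
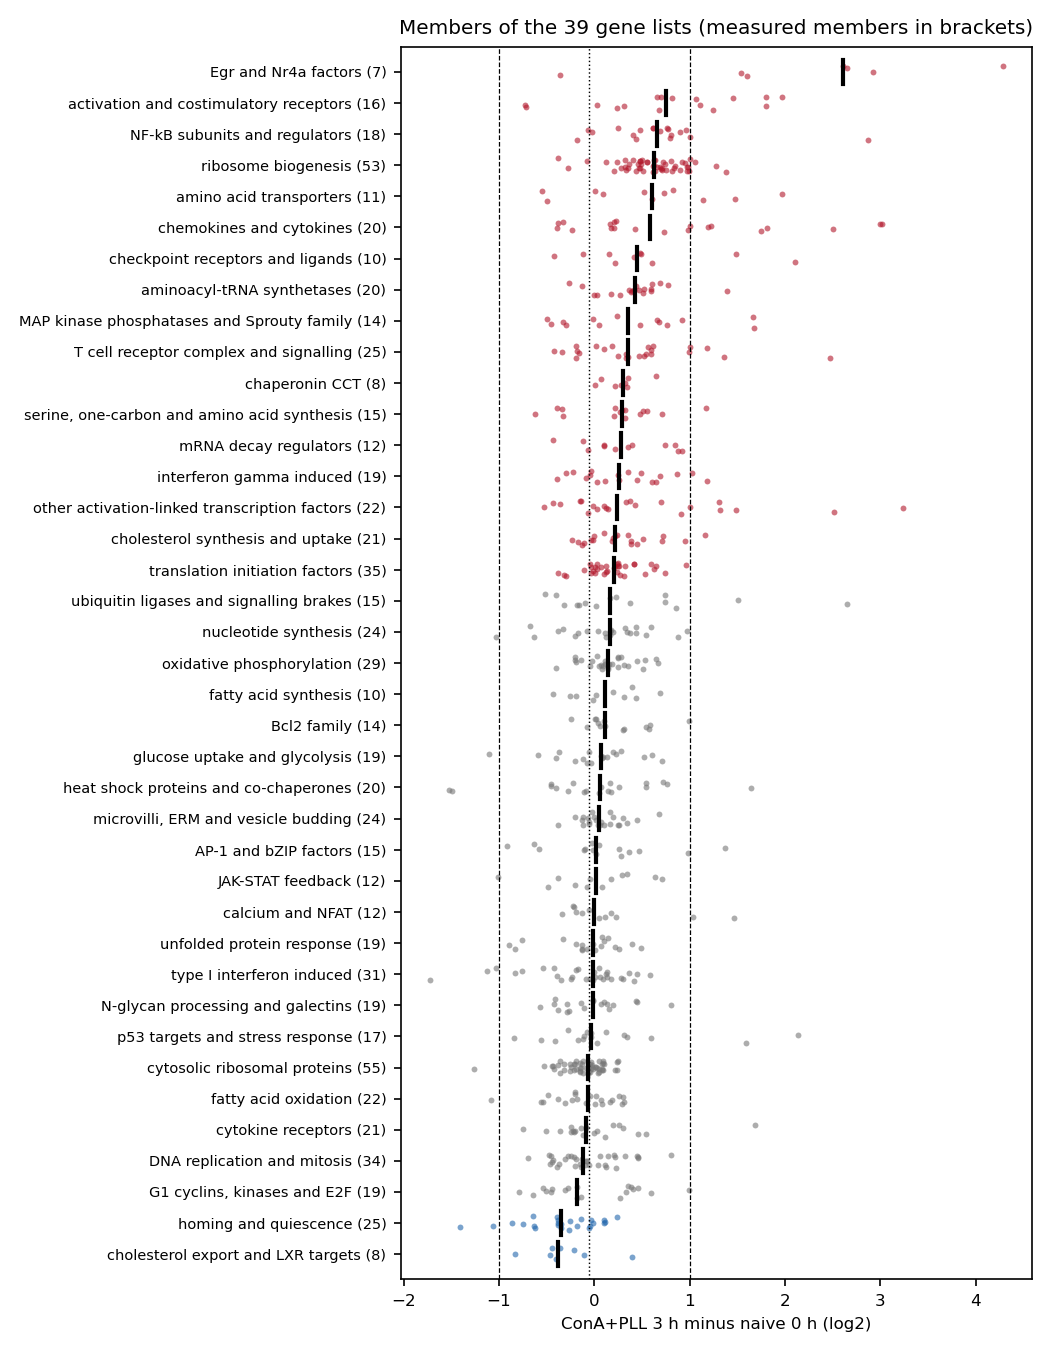
Difference between ConA+PLL 3 h and naive 0 h cells (log2, horizontal axis) for each measured member of 39 gene lists, 1 point per gene, with the list's median as a black bar. Lists whose median lay at least 0.25 above that of all genes are red (17), those at least 0.25 below are blue (2), the dotted line is the median of all genes (-0.06) and dashed lines mark 2-fold differences.

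Genes that build ribosomes were higher nearly throughout, in small steps. Of 53 measured ribosome biogenesis genes 50 lay above 0 (all genes, 42.7%), 4 were at least 2-fold higher (all genes, 1.03%) and the median was 0.62 (all genes, -0.06). Dkc1 (dyskerin), the enzyme that makes pseudouridine in ribosomal RNA, stood at 6.81 in ConA+PLL 3 h cells, 6.19 in ConA 3 h cells, 5.82 in PLL 3 h cells and 5.43 in naive cells. Nop2 stood at 7.54, 6.70, 6.30 and 6.27. Noc3l, Nop58, Gnl3 and Nop16, all proteins of the nucleolus, were 1.05, 1.01, 0.99 and 0.98 higher. The members below 0 were Nop56 (-0.39), Npm1 (-0.28) and Wdr12 (-0.08), which were named after their values were seen. The 55 genes of the cytosolic ribosomal proteins themselves had a median of -0.06, that of all genes, with 18 above 0. Rps15 was the one 2-fold lower, under 4.10 on both arrays (2.47 against 3.72 in naive cells).

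Other growth lists are given in turn. Amino acid transporters had a median of 0.60, with 3 of 11 measured members at least 2-fold higher. Slc7a5 (LAT1), the main importer of leucine in activated T cells, stood at 8.20 in ConA+PLL 3 h cells, 6.92 in ConA 3 h cells, 5.94 in PLL 3 h cells and 6.24 in naive cells. The arginine transporter Slc7a1 and the glutamine transporter Slc1a5 were 1.48 and 1.14 higher (0.94 as the mean of both probe sets of Slc1a5), and Slc3a2, the heavy chain that pairs with Slc7a5, was 0.60 higher. Srm, the spermidine synthase and a known target of Myc, was 1.69 higher. Aminoacyl-tRNA synthetases had a median of 0.43, with 17 of 20 above 0 and Eef1e1, a scaffold of the synthetase complex, 1.40 higher. Translation initiation factors had a median of 0.21, with 27 of 35 above 0 and none 2-fold apart. This list lost its shift under 4 alternatives, quantile normalization and cyclic loess among them. Of the serine and one-carbon genes (median 0.29 over 15) Psat1, an enzyme of serine synthesis, was 1.17 higher (5.65 against 4.48 in naive cells), while Phgdh, the enzyme before it, differed by -0.63.

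Lipid genes are a topic of the study. The cholesterol synthesis list had a median of 0.22 over 21 measured members, a shift from all genes that was lost when genes had to reach the receptor level. Cyp51, which removes a methyl group from lanosterol, was at 5.97 in ConA+PLL 3 h cells, 5.49 in ConA 3 h cells, 4.16 in PLL 3 h cells and 4.82 in naive cells, and Sqle and Hmgcs1, earlier enzymes of the pathway, were 0.95 and 0.72 higher. The 8 genes of cholesterol export and of the LXR receptors had a median of -0.38, with 1 above 0. Abca1, the main exporter, was at 6.04, 6.32, 6.06 and 6.87, so all 3 arrays of cultured cells lay under the naive one. Fatty acid synthesis had a median of 0.11 over 10 members, with Fasn at 7.70 in ConA+PLL 3 h cells and 7.02 in naive cells. Acaca, the enzyme that supplies Fasn, differed by -0.26 and the elongase Elovl6 by -0.43. Fatty acid oxidation had a median of -0.06 over 22 members. Hadh was the one beyond 2-fold (5.17 against 6.25 in naive cells), Acadvl differed by -0.56, Cpt1a by -0.30 and Hadha by 0.26, and Acadm was at 7.50 on both arrays.

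Other metabolism differed little at 3 h. Glycolysis had a median of 0.07 over 19 members. Its one gene beyond 2-fold, Pdk1, a kinase that closes off the mitochondrial use of pyruvate, was at 5.82 against 6.92 in naive cells, and the mean of its 2 probe sets gave -0.81. Oxidative phosphorylation had a median of 0.15 over 29 members, all within 0.66 of the naive level. Nucleotide synthesis had a median of 0.16 over 24 members, where Ppat, the first enzyme of purine synthesis, was 0.97 higher and Rrm2, the ribonucleotide reductase subunit of S phase, differed by -1.03. The mean of the 2 probe sets of Rrm2 gave -0.61, and its ConA+PLL 3 h level was under 4.10 (3.35 against 4.39).

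Genes of the cell cycle stayed near the naive level. The 34 measured genes of DNA replication and mitosis had a median of -0.11, with none 2-fold apart and 12 under 4.10 on both arrays. The G1 cyclin and kinase list had a median of -0.18 over 19 members, with Ccnd2, the D cyclin of early G1, at 8.45 against 7.45 in naive cells, just under the limit. Cdkn1a (p21), an inhibitor of the cycle, was 1.59 higher, and Plk3, a kinase of the stress response, was at 7.08 in ConA+PLL 3 h cells, 5.59 in ConA 3 h cells, 4.77 in PLL 3 h cells and 4.95 in naive cells. Both belong to the list of p53 targets and stress, whose median was -0.04 over 17 members. In the Bcl2 family 12 of 14 members lay above 0 (all genes, 42.7%), with a median of 0.11. The highest were Pmaip1 (Noxa, a sensor that promotes death, 0.99) and Bcl2l11 (Bim, 0.58). The survival genes Bcl2 (0.57) and Bcl2l1 (Bcl-xL, 0.54) came close behind Bcl2l11.

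Interferon genes are given by type. Genes induced by interferon gamma had a median of 0.26 over 19 measured members, with Irf1 at 8.17 in ConA+PLL 3 h cells, 7.74 in ConA 3 h cells, 7.46 in PLL 3 h cells and 6.99 in naive cells, and Irgm1 1.02 higher. Genes induced by type I interferon had a median of -0.01 over 31 members, and 3 were at least 2-fold lower (all genes, 0.648%). These were Apol9a, Oas2 (3.48 against 4.60 in naive cells) and Ifit2 (4.39 against 5.43). The difference of Oas2 is -0.51 when the lower level is set to 4.10, and it was under 2-fold after quantile normalization and cyclic loess. Ifit2 was at 5.81 in PLL 3 h cells and 4.96 in ConA 3 h cells, and its difference from naive cells was -0.90 to -0.97 under the other scalings. In the JAK-STAT list (median 0.02 over 12) Cish and Pim1, targets of cytokine signals, were 0.72 and 0.64 higher. Socs3 differed by -1.01 in one of its probe sets (4.21 against 5.22 in naive cells) and by 0.31 in the other, so its direction is not settled.

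Genes of microvilli, the ERM linkers and vesicle budding, which the study deals with as structures, were close to the rest of the genome, with a median of 0.05 over 24 members and none 2-fold apart. Ezr (ezrin), which ties the membrane to actin, was at 10.31 in ConA+PLL 3 h cells, 9.83 in ConA 3 h cells, 9.70 in PLL 3 h cells and 10.05 in naive cells. The ESCRT ATPase genes Vps4a and Vps4b differed by -0.12 and 0.07. Pfn1 (profilin) was 0.68 higher. Notch1, another gene of the study's questions, was at 7.51 against 7.12 in naive cells. N-glycan processing, which makes the sugars that ConA binds, had a median of -0.02 over 19 members, with Mogs, the first glucosidase of the pathway, 0.80 higher and Mgat1, which starts complex glycans, at 4.45 against 5.02 in naive cells.

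The cell identity of both arrays was checked with markers. Of the 7 T cell markers 6 were measured, all at or above 4.10 and all above 0, with a median difference of 0.26. Markers of B cells reached 4.10 on at least 1 of both arrays in 2 of 8 genes, those of monocytes in 2 of 8, dendritic cells in 3 of 9, neutrophils in 0 of 8, NK cells in 4 of 9, erythroid cells in 0 of 8, platelets in 3 of 5 and stroma in 3 of 6. The median differences of these 8 lists lay between -0.31 and -0.01. None of them held a gene that was 2-fold higher, and their part in the differences was not tested. The NK cell gene Ncr1 was 2-fold lower, but under 4.10 on both arrays (2.64 against 3.77 in naive cells). Of the 8 genes of the regulatory T cell list Il2ra alone was 2-fold higher, and the median was -0.03.

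The naive 0 h array was itself not low in some early genes, when set against the naive 24 h array. Nr4a1 stood at 9.18 there against 5.52 in naive cells at 24 h, Nr4a3 at 8.61 against 4.93, Cd69 at 8.75 against 5.98, Jun at 8.73 against 5.35, Irf4 at 6.94 against 4.69 and Tnfaip3 at 9.80 against 7.28. Other early genes differed less between these naive arrays. Egr1 was at 5.16 at 0 h against 4.88 at 24 h, Egr2 at 5.18 against 4.86 and Myc at 7.15 against 6.78. The cause was not tested. For Jun and Tnfaip3 the ConA+PLL 3 h level (7.81 and 9.78) was under that of naive 0 h cells and above that of naive 24 h cells.

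At 24 h a separate pair of arrays compares ConA+PLL with naive cells of the same culture time, and it shares no array with the 3 h comparison. Of all genes 158 (1.18%) were at least 2-fold higher in ConA+PLL 24 h cells, 52 (0.387%) were lower and 60.1% lay above 0, with a median of 0.08. Of the 138 genes 2-fold higher at 3 h, 107 (77.5%) were above 0 at 24 h, their median was 0.39, and 12 were again at least 2-fold higher (7 when each array was centred). These 12 are 8.70% of the 3 h genes and 7.59% of the 24 h genes. Of the 87 genes 2-fold lower at 3 h, 46 (52.9%) were below 0 at 24 h, with a median of -0.02. Only Gm5797, a predicted gene, was again at least 2-fold lower. Most of the 225 genes were thus within 2-fold of the naive level at 24 h.

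The 12 genes that were 2-fold higher at both times were Il2ra, Tnfrsf9, Cd274, Crtam, Irf4, Irgm1, Psat1, Dkc1, Lad1, Slc35f2, Zfpm1 and the predicted gene Gm12250. The difference of Il2ra was 1.68 at 3 h and 2.68 at 24 h (8.17 in ConA+PLL 24 h cells, 5.49 in naive 24 h cells). That of Tnfrsf9 was 1.24 at 3 h and 2.0 at 24 h, that of Psat1 1.17 and 1.77 and that of Irgm1 1.02 and 1.67. Irf4 and Cd274 were smaller at 24 h (3.24 and 1.55 for Irf4, 2.10 and 1.22 for Cd274). Crtam, Dkc1, Lad1, Slc35f2 and Zfpm1 were under the 2-fold limit at 24 h when each array was centred (0.88 to 0.99). Egr1, Tnf and Nr4a1 were 0.94, 0.97 and 0.93 higher at 24 h, just under the limit, whereas Egr2 (-0.36), Nfkbid (0.10), Dusp2 (0.19) and Plk3 (-0.08) were near the naive level.

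List medians at both times are set side by side here, with no test of the change between them. The Egr and Nr4a median was 2.61 at 3 h and 0.49 at 24 h, that of NF-kB genes 0.65 and 0.22 and that of ribosome biogenesis 0.62 and 0.32. DNA replication and mitosis had -0.11 at 3 h and 0.87 at 24 h, with 16 of 34 members at least 2-fold higher at 24 h (all genes, 1.18%). Nucleotide synthesis had 0.16 and 0.59, the interferon gamma genes 0.26 and 0.81, and the homing and quiescence genes -0.35 and -0.08. These medians stand against medians of all genes of -0.06 at 3 h and 0.08 at 24 h.

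**Figure D5:**
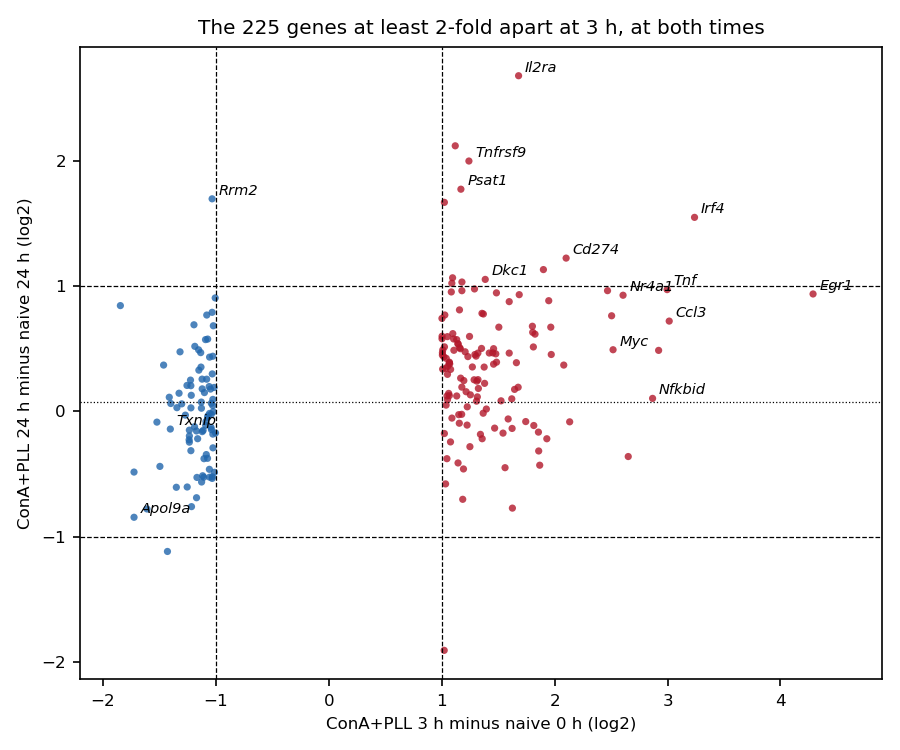
Difference at 3 h (ConA+PLL 3 h minus naive 0 h, horizontal axis, log2) and at 24 h (ConA+PLL 24 h minus naive 24 h, vertical axis, log2) for the 225 genes at least 2-fold apart at 3 h. Dashed lines mark 2-fold differences and the dotted line the median of all genes at 24 h, and most of the red genes lie between 0 and 1 on the vertical axis.

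Motif letters were counted in RefSeq promoter windows of 300 bases (250 before and 50 after a start, both strands). A window was at hand for 27025 genes, of which 10448 passed the filter here, 100 of the 138 genes 2-fold higher among them. Genes without a window could not be counted, and of the 7 Egr and Nr4a genes 5 had one. A gene not named here may therefore lack a window rather than a motif. The E-box CACGTG stood in the windows of 12 of 47 ribosome biogenesis genes (25.5%), among them Nop2, against 11.1% of filtered genes. Among all 2-fold genes with a window, the E-box stood in 12 of the 100 higher and in 1 of the 58 lower ones. The share among higher genes was thus close to that of filtered genes. The NF-kB consensus stood in 8 of 15 NF-kB list genes, Nfkbid and Nfkbia among them, against 11.99% of filtered genes. It stood in 16 of the 100 higher genes (16.0%) and in 9 of 58 lower genes (15.5%), so these sets had close shares. AP-1 letters (TGANTCA) stood in 14 of the 100 higher genes, against 6.38% of filtered genes. Of these 14, Olfr1136, Olfr869 and Clec4a2 lay under 4.10 on both arrays. The CArG box stood in 3 of the 100, namely Egr2, Dusp5 and Ppif, against 1.56% of filtered genes. The cyclic AMP response element was in 2 of the 100 and the heat shock element in none, against 3.36% and 0.536% of filtered genes. Genes with several starts had several windows and could match more than once, and a match in such a window describes the letters and not a site in use.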

How the data were processed

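RNA of CD3 T cells was hybridised to Mouse Gene 2.0 ST arrays (Affymetrix), with 8 groups of 1 array. Per the study's methods, the authors normalized the arrays with RMA, and the deposited values were read as log2 levels because RMA gives that scale. The table does not state the log base, and the sources used here do not say which arrays RMA treated as one set. RMA removes differences in the overall signal between arrays that it treats together. No columns of the authors' own comparisons were used.

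The table held 41345 probe sets. Of these 23521 had 1 gene symbol in the platform annotation, 1820 had several and 16004 had none. Symbols were checked by Entrez identifier against RefSeq (GRCm38.p6, 23328 found, 0 changed). Each of 22180 genes was represented by its brightest probe set on average, and 13428 genes reached the table median (3.62) on at least 1 array. Array medians ran from 3.53 to 3.69. Precision is limited by having 1 array per group.

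A difference is the ConA+PLL 3 h level minus the naive 0 h level. A list was called shifted where its median lay at least 0.25 from that of all genes. Of the 39 lists 17 were higher, 2 lower and 20 not shifted. Named were the 30 highest and 20 lowest genes that reached the receptor level (4.10), without predicted genes, small RNAs, receptor segments and olfactory or vomeronasal receptors, up to 6 members per list by size of difference, all members of the Egr and Nr4a, AP-1, NF-kB and cytokine lists, and genes tied to the study's questions. Genes outside this rule that complete a count or are its exceptions (Cd27, Crtam and Ppif, for example) were chosen after their values were seen. The comparison, the lists and the markers were chosen with earlier results of these data known. Alternatives were quantile normalization, centring, cyclic loess (limma 3.58.1 in R 4.3.3), the mean of all probe sets, 3 other filters, a 1.5-fold limit and the mean of a list. Scripts (Python 3.11.15, pandas 2.3.3, numpy 2.4.6) were tested on simulated data.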

Additional observations from a re-analysis of the deposited data

Results flagged for a closer look

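Rrm2, the S phase subunit of ribonucleotide reductase, and Btbd35f17 moved at least 2-fold in opposite directions at the 2 times. The difference between ConA+PLL and naive cells was -1.03 at 3 h and 1.70 at 24 h for Rrm2, and 1.02 at 3 h and -1.91 at 24 h for Btbd35f17, with 1 array a group, so the difference between times was not tested. For Rrm2 the 3 h difference is -0.29 when the lower level is set to 4.10 and -0.61 as the mean of its probe sets, and it was under 2-fold after each of the 3 other scalings. Btbd35f17 lay under 4.10 on all 4 of these arrays (3.52 in ConA+PLL 3 h cells, 2.50 in naive 0 h cells, 2.17 in ConA+PLL 24 h cells and 4.07 in naive 24 h cells).

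Probe sets without a gene symbol were outside the comparison. Of 16004 of them, 501 (3.13%) were 2-fold or more higher in ConA+PLL 3 h cells than in naive cells and 947 (5.92%) were 2-fold or more lower, with no filter on dim probe sets. Without that filter 167 and 102 of the 22180 named genes were 2-fold higher and lower. Of the 501 and 947 probe sets without a gene symbol, 317 and 724 reached 4.10 on at least 1 of both arrays.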

How the results depend on the processing

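No paired analysis was possible because each group has 1 array, and for the same reason no array could be left out. Of the counts of 2-fold genes, the 87 lower ones became 54 after quantile normalization and 55 after cyclic loess, while the 138 higher ones stayed within 1.5 times (123 to 172) under all 7 other scalings, probe set rules and filters. At a 1.5-fold limit 622 genes were higher and 853 lower, so the larger side turned with the limit. Of the 12 genes 2-fold higher at 3 h and again at 24 h, 7 remained when each array was centred. The scalings moved the median of all genes by at most 0.08. Over the 39 lists and their alternatives, 299 values kept their side of the 0.25 limit, 11 dropped under it and 2 passed it, and none of the shifted lists changed direction. Those that dropped under it were translation initiation factors (under 4 alternatives), the chaperonin CCT and mRNA decay genes (2 each), and the cholesterol synthesis, cytokine and other transcription factor lists (1 each). Over the 299 named genes and 4 alternatives, 1143 values stayed on their side, 28 fell under the 2-fold limit, 20 passed it, 5 moved by more than the spread of receptor genes and 0 reversed.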

Other observations

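Beyond the lists, 61 of the 2-fold higher genes that reached 4.10 belonged to no list, and the following were chosen after their values were seen. The p38 kinase Mapk11 was at 6.46 in ConA+PLL 3 h cells and 5.10 in naive cells, its substrate Mapkapk3 at 7.51 and 6.27, the p38 activator Map2k3 at 6.78 and 5.71 and Mapk6 (ERK3) at 8.06 and 7.0. Rasgrp1, which loads Ras downstream of the T cell receptor, was 1.17 higher. Urb2, Srfbp1, Wdr46 and Nifk, proteins of the nucleolus, were 1.35, 1.31, 1.23 and 1.05 higher. Pa2g4, a growth-linked protein that binds ribosomes, was 1.08 higher.

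Kdm6b, an eraser of the repressive mark H3K27me3, was at 9.38 in ConA+PLL 3 h cells, 8.50 in ConA 3 h cells, 7.44 in PLL 3 h cells and 7.82 in naive cells. The other probe set of Kdm6b differed by 0.49. The DNA methyltransferase Dnmt3b was 1.07 higher, and the histone deacetylase Hdac7 was at 6.70 against 5.69 in naive cells. Tuba1b and Tuba1a, alpha tubulins whose RNAs are much alike, were 1.60 and 1.42 higher. The naive level of Tuba1b (3.52) lay under that of the receptor genes, and counted from their level its difference is 1.02. The other probe set of Tuba1a differed by 0.83. The septins Septin11 and Septin7 were 1.37 and 1.08 higher. Of the lower genes outside the lists, Prkcb, a protein kinase C, was at 6.30 in ConA+PLL 3 h cells and 7.40 in naive cells, and Siah1a, a ubiquitin ligase, at 6.94 and 7.98.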
